A study of Mus musculus with 6 samples.

Results

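The genes described here are 8 surface receptors and secreted proteins of mature neutrophils, the short-lived white blood cells that leave the marrow to take up microbes. They are the chemokine and growth factor receptors Cxcr2 and Csf3r, the formyl peptide receptors Fpr1 and Fpr2, the activating receptors Clec4d and Trem1, and the secreted proteins Retnlg and Il1b. They were chosen by name, as genes that mature and circulating neutrophils express, and found in the table by gene identifier. All 8 were among the 23733 genes of the table and among the 18126 genes that passed the filter on low counts and were tested. Clec4d passed that filter mainly through the mutant libraries, since it exceeded the expression cut-off of 0.753 CPM (counts scaled to the size of the library) in 3 of 3 mutant but 1 of 3 control libraries. For Il1b the numbers were 3 and 2, and the other members exceeded it in every library.

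The libraries came from femurs of 5-week-old mice on a C57BL/6 background. The 3 mutant mice were Rosa26 mIfitm5/+ Acan-Cre ERT2: they carried, at the Rosa26 locus, a Flag-tagged mutant Ifitm5 cDNA with the change found in osteogenesis imperfecta type V, a dominant brittle bone disease, and a Cre recombinase that the aggrecan promoter drives in chondrocytes and that tamoxifen activates. Tamoxifen was injected intraperitoneally at 10 mg/kg per dose, at postnatal day 10 by the account of the RNA sequencing and from day 10 to day 15 by the account of the mouse lines. The 3 control mice were littermates, which in this study could carry the Cre alone, the knock-in allele alone or neither. Which of these the sequenced controls were, whether they received tamoxifen, and their sex are not stated in the sources used here. The aggrecan promoter is not one of blood-forming cells, and transcripts of blood-forming cells in the bone are compared here between these mutant mice and the controls. Since genotype and treatment of the controls are not stated, the mutant protein cannot be told apart here from the Cre or from tamoxifen. RNA was taken from pulverized bone, labelled as whole bone, and no source used here says that the marrow was removed.

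Neutrophils are made in the bone marrow from granulocyte precursors under the cytokine G-CSF, whose receptor is Csf3r. As they mature they stop making granule proteins, lose the marrow-retaining receptor Cxcr4 and gain Cxcr2, which draws them into the blood, and they come to carry receptors for bacterial peptides and for fungal or bacterial surfaces. Mature neutrophils held in the marrow form a reserve that can be released within hours of an infection.

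Each library held between 11473467 and 17058572 counts. By the study's account, osteoblasts, chondrocytes and skeletal progenitor niches express endogenous Ifitm5. The gene measured 31.8, 31.3 and 47.6 CPM in the control femurs against 23.4, 36.7 and 36.0 CPM in the mutant femurs. Its total level thus did not set the groups apart. Here and below, 3 values of a group are those of mice 1, 2 and 3, in that order. In the quasi-likelihood test of edgeR, adjusted by the Benjamini-Hochberg method, 0 of 18126 genes were called higher in the mutant mice (0.00%) and 0 were called lower. At an unadjusted p under 0.05 the same test gave 918 higher genes (5.06%) and 633 lower. DESeq2 called 107 genes higher (0.590%) and 11 lower. An edgeR fit blocked on replicate number, which compares mutant mouse 1 with control mouse 1 and so on, called 489 higher (2.70%) and 113 lower. The median log2 fold change over all genes was 0.00, and it was 0.16 when libraries were scaled by their totals alone, so fold changes are relative to a scale that this choice moves by that much, and log2 fold changes between -0.16 and 0 turn positive under it. Limma-voom called 0 genes. In edgeR without the block, 9113 of the 18126 log2 fold changes lay above 0. Counts for the lists below are to be read beside this share and the shares of calls over all genes.

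All 8 genes had higher mean levels in mutant than in control femurs, from 1.77-fold for Csf3r to 4.59-fold for Clec4d. Clec4d and Il1b are counted in the numbers below. They exceeded the expression cut-off in only 1 and 2 of the 3 control libraries, so they passed the filter on low counts only with the mutant libraries. Both are among the genes with an unadjusted p under 0.05 and those called with the block, and both enter the median. Clec4d is also among the 4 called by DESeq2 and the 6 without overlap. The edgeR test called 0 of the 8 after adjustment over all genes, and 7 of them, all but Csf3r, had an unadjusted p under 0.05, against 5.06% of all genes in the same direction. DESeq2 called 4 of the 8 (Cxcr2, Retnlg, Fpr2 and Clec4d), against 0.590% of all genes. With the replicate block all 8 were called higher, against 2.70% of all genes. For 6 of the 8 every mutant library lay above every control library, against 1185 genes or 6.54% of all. The median log2 fold change of the 8 was 1.85, or 2.02 by library totals alone. These 8 genes share a cell type and are not independent of each other, and in bulk bone more neutrophils and more RNA per neutrophil cannot be told apart.

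**Figure D1:**
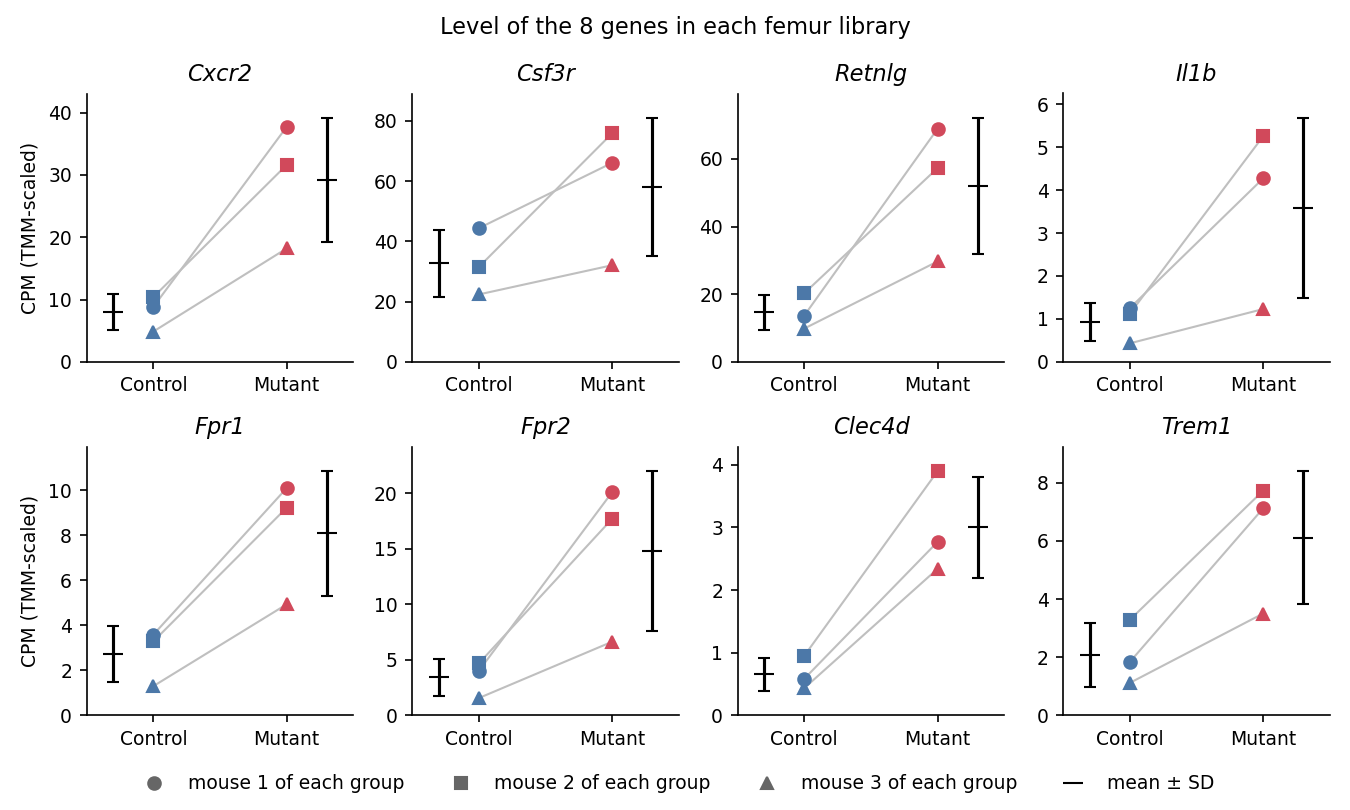
Level of each of the 8 genes in each library, in TMM-scaled CPM on an axis that starts at 0, for 3 control and 3 mutant femurs. Symbols mark the mouse number, grey lines join mice of the same number and black bars give the mean and SD of each group. All 24 lines rise from control to mutant, and mouse 3 has the lowest value of its group for all 8 genes.

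Positions of genes are those of GENCODE vM39 on GRCm39, the build of mm39. Cxcr2 (ENSMUSG00000026180, chr1:74193150-74200405 on the plus strand) is the receptor for the chemokines that carry glutamate-leucine-arginine before their cysteines, and it leads neutrophils out of the marrow and towards sites of infection. It measured 8.82, 10.4 and 4.87 CPM in the control femurs against 37.7, 31.6 and 18.2 CPM in the mutant femurs. The lowest mutant value stood above the highest control value, and mouse 3 was the lowest of both groups, as it was for every one of the 8 genes. The means were 8.04 ± 2.86 and 29.2 ± 9.95 CPM (SD, n = 3 mice each), a 3.63-fold ratio. The edgeR log2 fold change was 1.87 (SE 0.35) with an adjusted p of 0.447. The replicate block gave 1.86 (SE 0.17) with an edgeR adjusted p of 2.5e-04, and DESeq2 gave an adjusted p of 1.0e-04.

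Csf3r (ENSMUSG00000028859, chr4:125918262-125938236 on the plus strand), the receptor through which G-CSF drives granulocyte production, had the smallest difference of the 8. It measured 44.4, 31.5 and 22.4 CPM in the control femurs against 66.1, 75.9 and 32.1 CPM in the mutant femurs. The groups overlapped, because mutant mouse 3 lay below control mouse 1. The means were 32.8 ± 11 and 58.0 ± 23.0 CPM (SD, n = 3 mice each). The edgeR log2 fold change was 0.83 (SE 0.36), with an unadjusted p of 0.0553 and an adjusted p of 0.591. With the replicate block it was 0.79 (SE 0.16) and the edgeR adjusted p was 0.0243, while DESeq2 gave an adjusted p of 0.366.

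Fpr1 and Fpr2 are G protein-coupled receptors for N-formylated peptides, which bacteria and damaged mitochondria release, and Fpr2 also binds Camp, serum amyloid A and annexin A1. Fpr1 (ENSMUSG00000045551, chr17:18096733-18104202 on the minus strand) measured 3.58, 3.28 and 1.29 CPM in the control femurs against 10.1, 9.23 and 4.93 CPM in the mutant femurs. Fpr2 (ENSMUSG00000052270, chr17:18108070-18114215 on the plus strand) measured 3.99, 4.66 and 1.54 CPM in the control mice and 20.1, 17.7 and 6.62 CPM in the mutant mice. For both genes the groups did not overlap. Fpr1 had an edgeR log2 fold change of 1.58 (SE 0.43) with an adjusted p of 0.545, and 1.62 (SE 0.28) with an adjusted p of 0.0096 under the block. Fpr2 had an edgeR log2 fold change of 2.14 (SE 0.52) with an adjusted p of 0.52, and 2.12 (SE 0.23) with an adjusted p of 5.4e-04 under the block. DESeq2 gave adjusted p-values of 0.0593 for Fpr1 and 0.00353 for Fpr2. The start sites of the 2 genes lie 3868 bases apart on opposite strands, and their longest annotated transcripts were 70.2% identical over 1233 aligned bases. The longest run of identical bases was 50, and fractional counts appeared for Fpr2 in 2 libraries and for Fpr1 in 0. The annotation also places Fpr3 on the same strand over the whole of Fpr2. Fpr3 was not found in the deposited table, so how reads were divided between these receptors is uncertain.

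Clec4d (ENSMUSG00000030144, chr6:123239070-123252230 on the plus strand) is a C-type lectin receptor that recognises fungal and mycobacterial glycolipids and signals with Clec4e through Fcer1g. Its counts were low, with 7, 11 and 7 in the control femurs against 35, 55 and 36 in the mutant femurs. These gave 0.582, 0.949 and 0.432 CPM in the control mice and 2.77, 3.90 and 2.34 CPM in the mutant mice. The groups did not overlap. The exact 95% Poisson intervals, which cover counting error only, reached up to 1.70 CPM in control mouse 2 and down to 1.64 CPM in mutant mouse 3, so those intervals just met, while those of mutant mice 1 and 2 began at 1.93 and 2.94 CPM, above every control interval. The edgeR log2 fold change was 2.21 (SE 0.47) with an adjusted p of 0.447. Under the replicate block it was 2.22 (SE 0.46) with an edgeR adjusted p of 0.0266, and DESeq2 gave an adjusted p of 0.0148.

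Trem1 (ENSMUSG00000042265, chr17:48539784-48553952 on the plus strand) amplifies inflammatory signals in neutrophils and monocytes through the adaptor Tyrobp. It measured 1.83, 3.28 and 1.11 CPM in the control femurs against 7.12, 7.73 and 3.50 CPM in the mutant femurs. The groups did not overlap, although control mouse 2 and mutant mouse 3 were close. The edgeR log2 fold change was 1.58 (SE 0.46) with an adjusted p of 0.545, and under the replicate block it was 1.60 (SE 0.32) with an adjusted p of 0.0212. DESeq2 gave an adjusted p of 0.108. A processed pseudogene on the opposite strand, Gm18679, shares 2431 bases of the locus and held 2, 1 and 0 counts in the control libraries and 6, 9 and 5 in the mutant libraries.

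Retnlg (ENSMUSG00000022651, chr16:48692547-48694862 on the plus strand), a resistin-like secreted protein of mouse granulocytes, was the most abundant of the 8 per kilobase of transcript. It measured 13.7, 20.3 and 9.86 CPM in the control femurs against 68.9, 57.3 and 29.7 CPM in the mutant femurs. The groups did not overlap. The means were 14.6 ± 5.26 and 52.0 ± 20.2 CPM (SD, n = 3 mice each), a 3.55-fold ratio. The edgeR log2 fold change was 1.83 (SE 0.37) with an adjusted p of 0.462. The block gave 1.80 (SE 0.18) with an edgeR adjusted p of 3.7e-04, and DESeq2 gave an adjusted p of 1.3e-04.

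Il1b (ENSMUSG00000027398, chr2:129206490-129213059 on the minus strand) encodes interleukin-1β, a cytokine made as a precursor by stimulated neutrophils, monocytes and macrophages and cut to its active form by caspase-1. Its counts were 15, 13 and 7 in the control femurs against 54, 74 and 19 in the mutant femurs. In CPM these were 1.25, 1.12 and 0.432 in the control mice and 4.27, 5.25 and 1.23 in the mutant mice. Mutant mouse 3 fell just under control mouse 1, so the groups overlapped, while mutant mice 1 and 2 stood above every control. The edgeR log2 fold change was 1.96 (SE 0.62) with an adjusted p of 0.545. Under the replicate block it was 1.86 (SE 0.43) with an edgeR adjusted p of 0.0384, and DESeq2 gave an adjusted p of 0.16. A non-coding gene on the opposite strand, Gm14023, spans the whole of Il1b and held 11, 13 and 7 counts in the control libraries and 16.2, 11 and 22 in the mutant libraries. Whether counting used strand was not given in the sources used here, so reads of the 2 genes cannot be told apart.

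**Figure D2:**
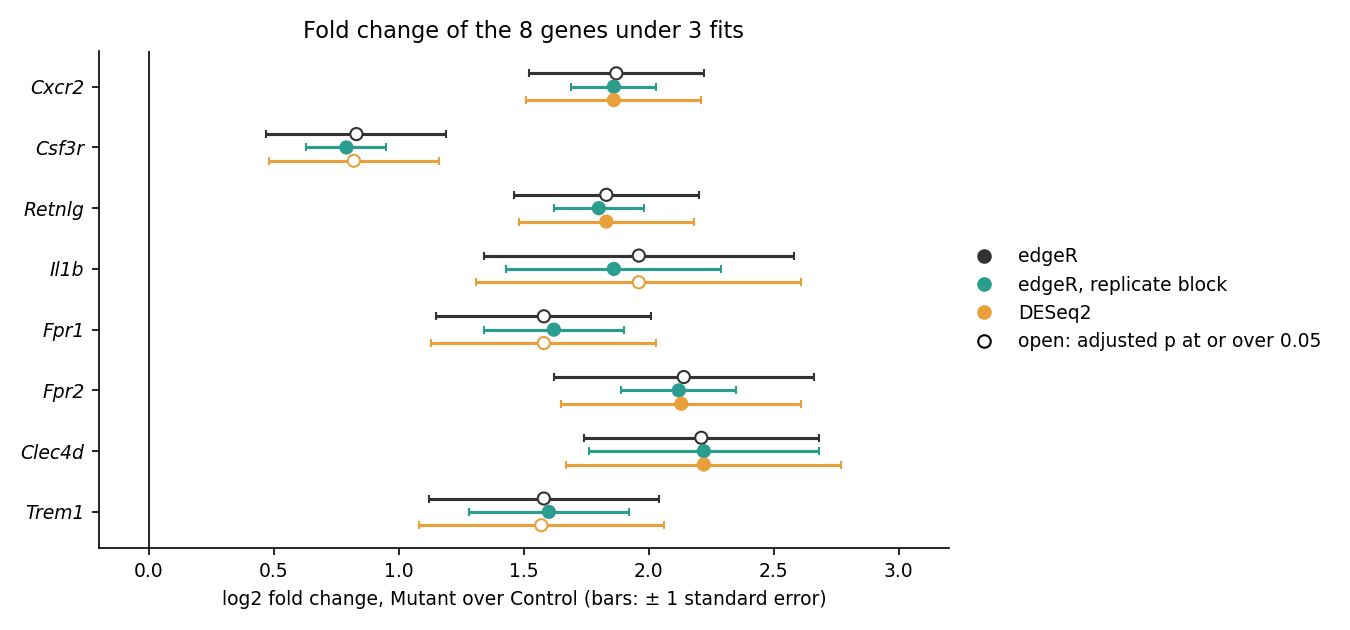
Log2 fold change of the 8 genes, mutant over control, from edgeR, edgeR with the replicate block and DESeq2, with bars of 1 standard error. Filled points have an adjusted p under 0.05: 0 of 8 for edgeR, 8 of 8 with the block and 4 of 8 for DESeq2, and all points lie above 0.

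Within each replicate number the mutant library exceeded its control for every gene, in 24 of 24 ratios of CPM. For the 6 genes whose groups did not overlap, this had to hold in any pairing, and the 8 genes are not independent of each other. The ratios for numbers 1, 2 and 3 were 4.27, 3.03 and 3.74 for Cxcr2, and 5.04, 3.79 and 4.29 for Fpr2. Csf3r gave the lowest ratios, 1.49, 2.41 and 1.43. The levels of these 3 genes spread more widely between mice of a group than the ratios did between numbers. The summed CPM of the 8 genes was 78.2, 75.5 and 42.0 in the control femurs against 217, 209 and 98.6 in the mutant femurs. The calls under the block depended on which pair entered. Without pair 1, 5 members were called (Cxcr2, Csf3r, Retnlg, Fpr1 and Fpr2), without pair 2 also 5 (Cxcr2, Retnlg, Fpr1, Fpr2 and Trem1), and without pair 3 only 3 (Cxcr2, Retnlg and Fpr2). Over all genes tested, the same 3 fits called 257 of 18408, 551 of 18374 and 142 of 18154 higher. Leaving out any 1 of the 6 libraries without the block, edgeR called 0 of the 8, and the lowest adjusted p was 0.0767, for Retnlg without mutant mouse 3.

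The promoters of the 3 genes called in every fit with the block, and that of Csf3r, which differed least, are shown to let the windows be compared. Each runs from 250 bases before the start that RefSeq annotates to 50 bases after it. That start is not always the one of GENCODE, from which the gene positions above come: on GRCm39 it lay 424 bases downstream of the GENCODE start for Retnlg, whose whole window is thus inside the GENCODE gene, 190 downstream for Csf3r, 16 for Fpr2 and 3 for Cxcr2. The sequences are RefSeq's, from a table on GRCm38.p6, and each was found at exactly 1 place in GRCm39. Those places are chr1:74192903-74193202 on the plus strand for Cxcr2, chr16:48692721-48693020 on the plus strand for Retnlg, chr17:18107836-18108135 on the plus strand for Fpr2 and chr4:125918202-125918501 on the plus strand for Csf3r. Capitals mark matches, on either strand, to GAGGAA, a core bound by the myeloid factor PU.1, or to TTNNGNAA, a pattern bound by C/EBP factors.
Cxcr2: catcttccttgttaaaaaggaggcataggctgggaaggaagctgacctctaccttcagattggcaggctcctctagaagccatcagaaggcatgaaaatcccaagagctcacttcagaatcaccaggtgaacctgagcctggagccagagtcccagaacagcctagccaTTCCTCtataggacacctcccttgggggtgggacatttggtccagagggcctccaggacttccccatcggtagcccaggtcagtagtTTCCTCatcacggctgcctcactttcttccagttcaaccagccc
Retnlg: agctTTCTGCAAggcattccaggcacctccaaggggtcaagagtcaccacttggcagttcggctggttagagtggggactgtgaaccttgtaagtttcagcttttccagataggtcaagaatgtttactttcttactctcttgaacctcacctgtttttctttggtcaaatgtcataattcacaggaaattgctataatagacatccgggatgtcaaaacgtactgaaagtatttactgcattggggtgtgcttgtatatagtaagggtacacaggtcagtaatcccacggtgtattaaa
Fpr2: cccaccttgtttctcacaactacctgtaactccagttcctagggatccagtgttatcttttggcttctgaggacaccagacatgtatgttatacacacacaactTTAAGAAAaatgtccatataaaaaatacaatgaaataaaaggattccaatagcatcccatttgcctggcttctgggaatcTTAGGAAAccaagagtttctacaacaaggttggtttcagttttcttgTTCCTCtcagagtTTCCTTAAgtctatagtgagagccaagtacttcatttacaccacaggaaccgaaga
Csf3r: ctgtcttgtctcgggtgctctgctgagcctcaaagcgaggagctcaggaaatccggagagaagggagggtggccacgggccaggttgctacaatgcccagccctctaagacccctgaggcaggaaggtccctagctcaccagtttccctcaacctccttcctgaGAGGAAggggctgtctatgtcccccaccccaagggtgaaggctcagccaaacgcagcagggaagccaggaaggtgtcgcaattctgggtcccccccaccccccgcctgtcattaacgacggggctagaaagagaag
Cxcr2 held GAGGAA at 2 places and Csf3r at 1, Retnlg held TTNNGNAA at 1, and Fpr2 held GAGGAA at 1 and TTNNGNAA at 3, of which none overlapped another match. Over the 8 promoters, 5 held GAGGAA (Cxcr2, Csf3r, Fpr2, Clec4d and Trem1), against 28.3% of the 32851 promoters in the table. TTNNGNAA was held by 6 of the 8 (all but Cxcr2 and Csf3r), against 40.7%. The AP-1 pattern TGANTCA was held by 0 of the 8, against 7.81%, and TATAAA by 3 (Il1b, Fpr1 and Fpr2), against 13.6%. These are matches of letters and were not read as binding sites.

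Ranked by CPM per kilobase of annotated exon, the order in the control mice was Retnlg (13.5), Csf3r (6.43), Cxcr2 (2.64), Fpr2 (2.59), Fpr1 (2.05), Trem1 (0.689), Clec4d (0.408) and Il1b (0.359). Only Retnlg over Csf3r and Csf3r over Cxcr2 were separated by more than the spread of the 3 libraries, and the ranges of the other neighbours overlapped. Compared within each control library, Fpr2 was also above Fpr1, Fpr1 above Trem1 and Trem1 above Clec4d every time. In the mutant mice the level per kilobase was 48.0 for Retnlg, 11.4 for Csf3r, 11.3 for Fpr2, 9.58 for Cxcr2, 6.10 for Fpr1, 2.03 for Trem1, 1.87 for Clec4d and 1.38 for Il1b. There the neighbours that did not overlap were Retnlg over Csf3r and Fpr1 over Trem1. Within each mutant library, Cxcr2 was also above Fpr1 and Clec4d above Il1b every time. Csf3r thus led the other receptors in the control mice by a margin that was not seen in the mutant mice.

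The same shift was read within libraries, where scaling has no part. The ratio of Csf3r to Cxcr2 in CPM was 5.04, 3.02 and 4.61 in the control femurs against 1.75, 2.40 and 1.76 in the mutant femurs. The groups did not overlap, at 4.22 ± 1.06 and 1.97 ± 0.371 (SD, n = 3 mice each); an exact permutation test of 3 against 3 reaches 0.1 at the lowest (two-sided), and the ratio was not tested further. Csf3r made up 41.7% to 56.8% of the summed CPM of the 8 genes in the control mice and 30.5% to 36.4% in the mutant mice. Shares of 1 sum move against each other, and those of Cxcr2 (11.3% to 13.8% and 15.2% to 18.5%), Retnlg (17.6% to 26.9% and 27.4% to 31.8%), Fpr2 (3.67% to 6.17% and 6.71% to 9.26%) and Clec4d (0.745% to 1.26% and 1.28% to 2.37%) were higher in the mutant mice, also without overlap. Ratios of the other 6 genes to Cxcr2 overlapped between the groups. Retnlg over Cxcr2 was 1.84 ± 0.25 and 1.76 ± 0.112, and Fpr2 over Cxcr2 was 0.405 ± 0.0769 and 0.485 ± 0.106 (control and mutant, SD, n = 3 mice each).

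**Figure D3:**
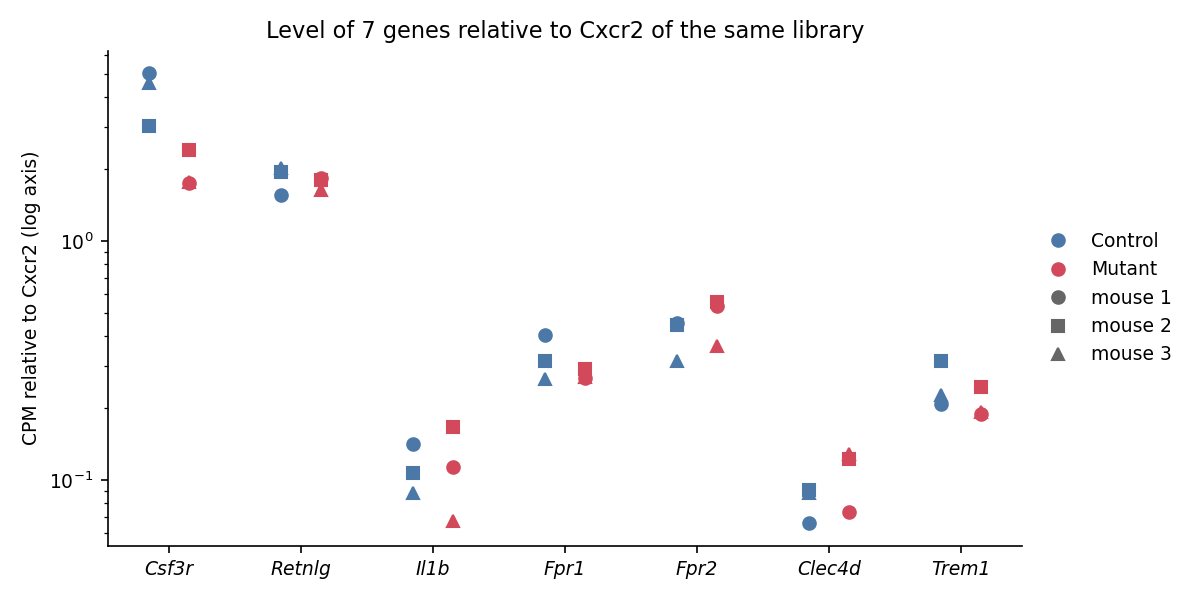
Ratio of each of the other 7 genes to Cxcr2 within each library, in CPM over CPM on a log axis, with controls in blue, mutants in red and symbols for the mouse number. Only Csf3r separates the groups, with control libraries at 3.02 to 5.04 and mutant libraries at 1.75 to 2.40.

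Over the 6 libraries each member followed the mean of the 8 (as z-scores of log2 CPM), with Pearson r from 0.909 for Csf3r to 0.998 for Fpr2; each member is part of that mean, and the libraries share the group difference. The 10 genes outside the 8 with the highest r to that mean over the same 6 libraries were Kcnj5 (0.996), Gm33148 (0.995), Slc2a3 (0.994), Cd177 (0.992), Sorl1 (0.992), Alox5 (0.992), Il6ra (0.991), Gm15987 (0.991), Panct2 (0.991) and Ccno (0.990). Cd177 is a surface glycoprotein of neutrophils, Alox5 makes leukotriene precursors and Slc2a3 is a glucose transporter. Their log2 fold changes ran from 0.51 for Il6ra to 3.12 for Gm33148.

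Of 33 tested genes from a wider list of mature neutrophil genes, 30 had log2 fold changes above 0, against 9113 of all 18126. The list median was 0.71. EdgeR called 0 of the 33, with 15 at an unadjusted p under 0.05 in the higher direction, against 5.06% of all genes. DESeq2 called 7, against 0.590% of all genes. The block called 9, or 5 to 10 with a pair left out, against 2.70% of all genes with every pair. Of the 33, 4 exceeded the expression cut-off in fewer control than mutant libraries. S100a9 and S100a8, which form the calcium-binding protein calprotectin, had edgeR log2 fold changes of 1.65 (SE 0.27) and 1.62 (SE 0.35), with adjusted p-values of 1.4e-04 and 0.00194 under the block; the call of S100a8 was lost without pair 1 (0.144). Mmp25, a membrane-bound protease of neutrophils, had 1.39 (SE 0.28) and Itgam, the integrin chain CD11b, had 0.73 (SE 0.15), with edgeR adjusted p-values of 0.00817 and 0.00674 under the block; that of Itgam was lost without pair 3 (0.0512). The other 3 lay below 0 in edgeR. Mmp9, a gelatinase that osteoclasts also make in bone, had -0.28 (SE 0.29) and Ccr1, a chemokine receptor, -0.08 (SE 0.22), and both turned positive with 1 library left out, at 0.06 and 0.21 at the highest. Cd14, a co-receptor for bacterial lipopolysaccharide, had -0.49 (SE 0.30) and stayed between -0.62 and -0.30 with any library left out. It measured 4.08, 4.40 and 5.49 CPM in the control femurs against 2.37, 3.69 and 3.89 CPM in the mutant femurs, every mutant value below every control value, with an edgeR adjusted p of 0.455 under the block. Ly6g, a mouse neutrophil surface marker, measured 3.74, 5.09 and 0.678 CPM in the control femurs against 9.82, 7.17 and 2.92 CPM in the mutant femurs, which overlapped, and the block gave an edgeR adjusted p of 0.0778.

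Of the ligands of Cxcr2, 2 of 5 were tested, Ppbp and Cxcl5. Ppbp, which platelets carry, measured 33.2, 33.6 and 18.2 CPM in the control femurs against 154, 98.8 and 50.4 CPM in the mutant femurs, and the groups did not overlap. Its edgeR log2 fold change was 1.84 (SE 0.45), with adjusted p-values of 0.545 without and 2.4e-04 with the block. Cxcl5, which exceeded the expression cut-off in 1 control and 2 mutant libraries, had 1.34 (SE 0.84), with an edgeR adjusted p of 0.372 under the block. Of 5 genes that hold neutrophils in the marrow, 3 lay above 0 on the log2 scale and the block called 2. Cxcr4, the receptor that retains them, measured 33.9, 29.2 and 24.4 CPM in the control femurs against 68.3, 43.6 and 43.7 CPM in the mutant femurs, without overlap. Cxcr4 and Itga4, an integrin chain that binds Vcam1, had edgeR log2 fold changes of 0.83 and 0.85, called by the block with adjusted p-values of 0.00887 and 0.00985, which became 0.0913 and 0.0773 without pair 3. Vcam1 itself had 0.51, with an edgeR adjusted p of 0.183 under the block, and Cxcl12, the ligand of Cxcr4 made by marrow stroma, had -0.11. Cxcr4 and Cxcr2 were thus both higher in the mutant means.

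Of 7 tested genes of the G-CSF pathway downstream of Csf3r, 4 lay above 0 on the log2 scale, around a median of 0.00, or 0.17 by library totals alone. Cebpe, a transcription factor of late granulocyte maturation, measured 2.25, 3.36 and 1.05 CPM in the control femurs against 7.04, 8.37 and 4.41 CPM in the mutant femurs, without overlap. Its edgeR log2 fold change was 1.59 (SE 0.44), with an adjusted p of 0.0148 under the block, which became 0.0555 without pair 1 and 0.119 without pair 3. Socs3, the feedback inhibitor of the receptor, went the other way and measured 28.9, 32.1 and 32.7 CPM in the control femurs against 16.7, 21.4 and 23.3 CPM in the mutant femurs. Every mutant value lay below every control value, and the edgeR log2 fold change was -0.61 (SE 0.17), with edgeR adjusted p-values of 0.545 without and 0.0411 with the block. The call was lost whichever pair was left out (0.111 to 0.149), and DESeq2 gave an adjusted p of 0.173. The kinases Jak1 and Jak2 and the factor Stat3, which many cells use, had log2 fold changes of 0.07, 0.00 and -0.03.

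Around Il1b, 9 of the 10 tested genes of the interleukin-1 pathway lay above 0 on the log2 scale, against 9113 of all 18126, but around a median of 0.12. EdgeR, with or without the block, and DESeq2 called 0 of them, with 1 at an unadjusted p under 0.05 in edgeR. Il1r2, a decoy receptor that neutrophils carry, held 4, 10 and 6 counts in the control femurs against 21, 35 and 21 in the mutant femurs. It exceeded the expression cut-off in 1 of 3 control and 3 of 3 mutant libraries, so it was tested because of the group in which it was higher. Its log2 fold change was 1.82 (SE 0.56), with an edgeR adjusted p of 0.102 under the block. Il1r1, the signalling receptor, had 0.01, its adaptor Myd88 had 0.03 and Casp1, which cuts the precursor, had 0.12. The natural antagonist Il1rn had -0.01 and Nlrp3, a sensor that activates caspase-1, had 0.63 (SE 0.36).

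For Fpr2 and Fpr1, 3 of 8 further genes listed for the axis were tested. Fpr3, Fpr-rs3, Fpr-rs4, Fpr-rs6 and Fpr-rs7 were not found in the table. Camp, a granule peptide that binds Fpr2, had an edgeR log2 fold change of 1.58 (SE 0.31) with an adjusted p of 6.5e-04 under the block, Anxa1 had 0.33 (SE 0.16) and the G protein subunit Gnai2 had -0.09. Of 16 tested genes around Clec4d and Trem1, 14 lay above 0 on the log2 scale, around a median of 0.22, and the block called 4 higher, or 1 to 4 with a pair left out. Clec4e, the partner lectin of Clec4d, measured 1.41, 2.16 and 3.08 CPM in the control femurs against 12.0, 10.8 and 5.39 CPM in the mutant femurs, without overlap. Its edgeR log2 fold change was 2.06 (SE 0.40) with adjusted p-values of 0.447 without and 0.028 with the block (0.102 without pair 1), and DESeq2 gave an adjusted p of 8.6e-04. Clec5a, a lectin that couples to Tyrobp, Pglyrp1, a granule protein that binds Trem1, and Treml2 had log2 fold changes of 1.14, 1.43 and 0.98, with edgeR adjusted p-values of 0.0274, 0.00848 and 0.00994 under the block, all above 0.05 without pair 3. The lectin receptor Clec4n had -0.52. The adaptors themselves, which macrophages and osteoclasts share, had smaller values: Tyrobp had 0.15 (SE 0.19) and Fcer1g 0.00 (SE 0.15). Of the other resistin genes only Retnla was tested, at 0.43.

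Markers of other cells in the femur moved beside these genes. The 10 secondary granule genes of neutrophil precursors had a median log2 fold change of 1.69, their summed CPM ran from 342 to 544 in the control and from 878 to 1642 in the mutant libraries, and the block, also with any pair left out, and DESeq2 each called 8. Mmp8 and Lcn2 had 1.79 and 1.78 (SE 0.30 each). The 8 primary granule genes of earlier precursors had a median of 0.86, sums of 62.5 to 146 and 196 to 266 CPM, and 4 called by the block (1 to 4 with a pair left out), among them Mpo and Elane with 1.06 and 1.22. The summed CPM of the 8 receptors and cytokines was 12.3% to 16.3% of the secondary granule sum in the control libraries and 11.2% to 16.0% in the mutant libraries, so this share did not set the groups apart, and relative to the primary granule sum it was 53.7% to 67.2% and 50.4% to 95.2%.

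Beyond granulocytes, 14 tested erythroid genes had a median log2 fold change of 2.00, which was 0.92 without mutant mouse 1. The block called 13 of them higher, or 11 to 13 with a pair left out, although their sums overlapped, at 1058 to 2382 CPM in the control and 2069 to 11801 CPM in the mutant libraries. Megakaryocyte genes had a median of 1.63 over 10 genes, with sums of 61.0 to 99.0 and 111 to 274 CPM. Genes of eosinophils, basophils and mast cells had sums of 5.67 to 11.4 and 13.8 to 34 CPM, and 6 of the 8 tested exceeded the expression cut-off in fewer control than mutant libraries, so no median is given. Monocyte genes had a median of 0.33 over 12 genes with overlapping sums of 700 to 887 and 745 to 886 CPM. The block called 3 of them higher (1 without pair 3), Ly6c2 and Ccr2 among them. Csf1r was called lower by the block, a call lost without pair 2 (edgeR adjusted p 0.107) or pair 3 (0.158). Resident macrophage genes had a median of -0.04 over 10 genes, or 0.13 by library totals alone and -0.26 to 0.07 with 1 library left out, with sums of 156 to 241 and 163 to 206 CPM, and B cell genes a median of 0.29 over 11, from -0.05 to 0.73 with 1 library left out, with sums of 152 to 291 and 169 to 299 CPM. Only 4 T and NK cell genes could be tested, and Cd3d, Cd3g and Trbc1 stood at 0 in at least 1 library, as did the macrophage gene Cd5l and the eosinophil genes Ear1 and Il5ra. Osteoblast genes had a median of -0.36 over 12 genes, with sums of 124390 to 180237 and 62789 to 113871 CPM. Most of these sums is Col1a1 and Col1a2, the only 2 of the 12 with every mutant library below every control library. Cartilage genes had a median of 1.55 over 12, with sums of 1682 to 2061 and 2240 to 6543 CPM, and skeletal muscle genes 0.64 over 10, from -0.03 to 1.52 with 1 library left out, with overlapping sums of 1372 to 11184 and 2508 to 15201 CPM. Without the block edgeR called 0 genes in each of these lists. With a pair left out in brackets, the block called higher 6 megakaryocyte (4 to 8), 7 skeletal muscle (0 to 8) and 1 cartilage gene (1 to 10). DESeq2 called 4, 0 and 8 of these 3 lists higher. The block also called 1 gene of eosinophils, basophils and mast cells higher, or 0 with any pair left out, and 1 osteoblast gene lower. With all pairs it called 0 macrophage, B cell or T and NK cell genes. Il1b, Clec4d, Trem1 and Csf3r are among those of the 8 genes that monocytes also express. How far the amount of marrow or blood in each femur, or any of these cell types, bears on the 8 genes was not tested.

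**Figure D4:**
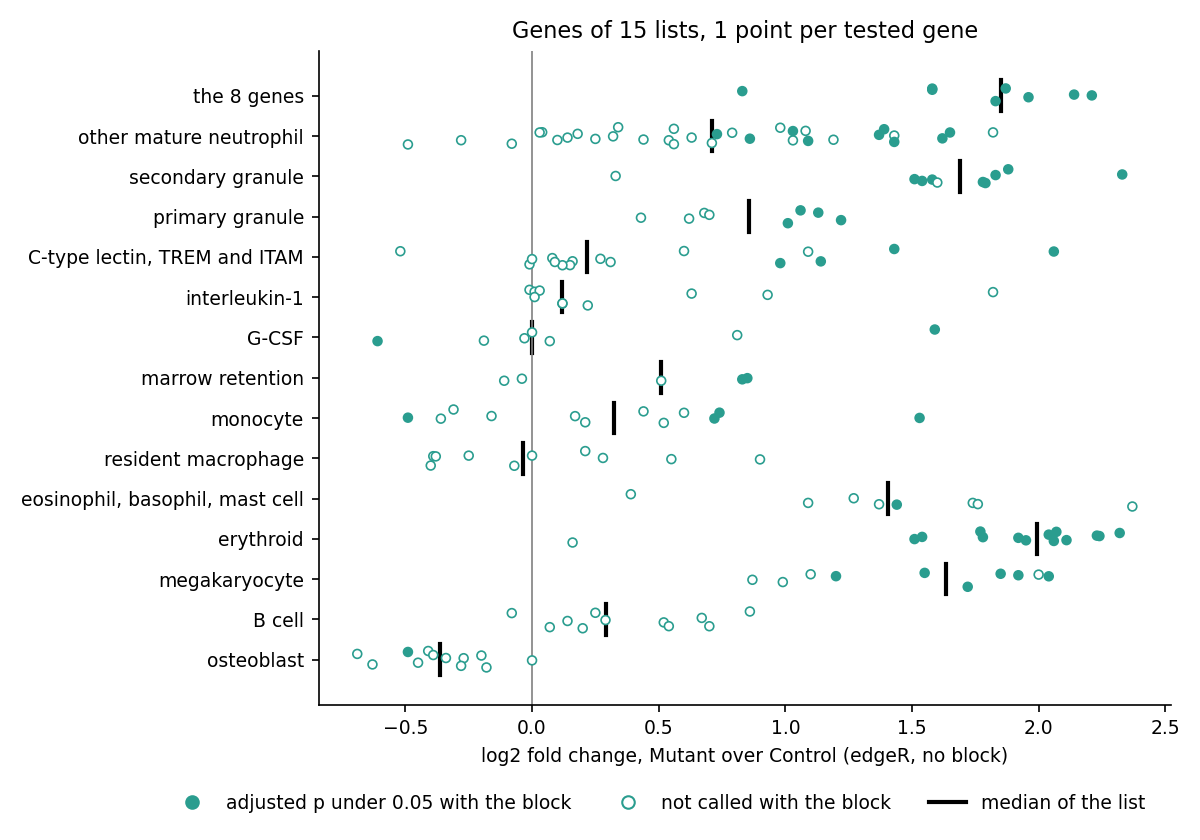
Log2 fold change, mutant over control, from edgeR without the block, for every tested gene (points) of each list, with the list's median (black line); filled points were called with the block. The 8 genes have a median of 1.85, the secondary granule genes 1.69 and the erythroid genes 2.00, or 0.92 without mutant mouse 1, while resident macrophage genes are centred near 0.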

How the data were processed

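Total RNA of pulverized femurs from 3 mutant and 3 control mice, with 1 library per mouse, was depleted of ribosomal RNA and sequenced. By the study's methods, reads were aligned with STAR to mm39, and Partek and mm39 are named in the submitters' processing notes. No version, annotation, counting setting or strandedness is given in the sources used here. What the authors deposited is an unscaled table of estimated counts for each gene, of which 70.7% were exactly whole. The lowest sum over the 6 libraries was 10, so rarer genes are not in the table. The table held 0 columns of other samples, and 23572 of 23733 identifiers matched GENCODE vM39 on GRCm39.

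Counts were rounded, filtered by edgeR's filterByExpr (minimum 10 counts, total 15 counts) and scaled by TMM, with factors between 0.931 and 1.10. CPM are TMM-scaled. The groups were compared in edgeR (quasi-likelihood, robust), with Benjamini-Hochberg adjustment over 18126 genes. A call is an adjusted p under 0.05, and log2 fold changes are mutant over control. The script was tested on simulated counts. R 4.3.3, edgeR 4.0.16, limma 3.58.1, DESeq2 1.42.0 and Python 3.11.15 were used.

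The labels number the mice 1 to 3 in each group. Deviations from the group means correlated within all 3 numbers (r = 0.154, 0.212 and 0.465 for numbers 1, 2 and 3, above the limit of 0.1), so the block is given beside the results. No source ties a number to a litter, and the r of mutant mouse 1 with control mouse 2 (0.202) exceeded that within number 1. The numeric column headers of the deposited counts, whose meaning is not stated, were consecutive for the 2 mice of number 2 and for those of number 3. For number 1 they were not. Deviations cancel out within a group, so a positive r for number 3 raises those among numbers 1 and 2 in any matching. The 3 values of r are thus not separate evidence that the mice were paired. P-values set the difference between the groups against the spread between these mice, which is estimated with help from all genes. Under the block, that spread is what remains between the few pair differences after differences between numbers are removed.

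Other settings were DESeq2, limma-voom, median-ratio size factors, library totals alone, no filter, a filter of 1 CPM in 3 libraries, the block without each pair, and each library left out. Levels per kilobase used the union of annotated exons. Named genes were the 8 members, genes of the pathway lists, the genes of smallest p in the wider neutrophil and cell type lists, Ifitm5 and the 10 genes of highest correlation. Mmp9, Ccr1, Cd14, Ly6g, Csf1r, Col1a2, the cell type genes at 0 and the genes that overlap a member were chosen after their values were seen. The members and lists were chosen with earlier results of these data known.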

Additional observations from a re-analysis of the deposited data

How the results depend on the processing

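Every log2 fold change of the 8 genes stayed positive under all 16 alternatives, in 128 of 128 values between 0.55 and 2.56, and 0 reversed. These values are refits of the same libraries and are not independent of each other. The number of calls did not stay. Without the block, edgeR called 0 genes, 0 of the 8 members and 0 of 193 genes in the other lists. DESeq2 called 118, 4 and 33, and the replicate block 602, 8 and 62. The block without pair 1, 2 or 3 called 297, 700 and 157 genes, 5, 5 and 3 members, and 49, 72 and 33 listed genes. Leaving out 1 library without the block called 0 to 8 genes, 0 members and 0 to 4 listed genes, and the 8 and the 4 came without mutant mouse 2. Settings other than DESeq2 and the block called 0 members, limma-voom included. The cause of these differences between fits was not tested. Counted per kilobase of the longest annotated transcript instead of all exons, Retnlg was at 18.8 CPM in the control and 66.7 CPM in the mutant mice, which leaves it the highest of the 8. Depth limits Clec4d and Il1b most, at 7 to 15 counts in each control library.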
